A study of Mus musculus with 2 samples.

Results

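The microRNA genes Mir10a, Mir10b, Mir196a-1, Mir196a-2, Mir196b and Mir615 lie inside the mouse Hox clusters, and their reads were examined in young heart. These 6 members were chosen by gene name in GENCODE M21 from the 2202 annotated microRNA genes of the deposited tables. The libraries came from heart tissue of female B6CASTF1/J mice, an F1 hybrid strain, aged 14 days, and the RNA sequenced was shorter than 30 bases. The 2 biological replicates form 1 group, with no treatment, genotype or other condition to compare. Replicate 1 is labelled with 3 females and replicate 2 with 1, so replicate 1 may have been pooled, which the labels do not say. The age is the one in the age field, although the library descriptions write it in months.

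The Hox clusters hold the homeobox genes that set position along the body axis, and their order along the chromosome follows their order of use along that axis. MicroRNA genes of the miR-10 and miR-196 families sit between these genes and are transcribed in the same direction, and miR-196 is known to direct cleavage of the Hoxb8 messenger RNA. A microRNA recognises its targets mainly through its seed, bases 2 to 8 from its 5′ end. Of the families, miR-10 is also known beyond patterning for its expression in vascular endothelium.

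The mature sequences of the 6 genes decide which reads can be told apart, and those of the 5′ arms are shown first, in the RefSeq spelling on GRCm38.p6 with the seed in capitals.
miR-10a-5p: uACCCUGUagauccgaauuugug
miR-10b-5p: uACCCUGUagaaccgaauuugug
miR-196a-5p: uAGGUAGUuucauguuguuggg
miR-196b-5p: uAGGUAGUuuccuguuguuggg
The pair from miR-10 share a seed and 22 of 23 bases, and the single difference is U12A, with the base of miR-10a first and positions counted from 1 at the 5′ end. The pair from miR-196 also share a seed and 21 of 22 bases, with A12C as the single difference between miR-196a and miR-196b. In the RefSeq table of 1738 mature entries, no gene outside the members has either seed. Both Mir196a-1 and Mir196a-2 encode the same miR-196a-5p, which was found whole in 2 of the 2202 GENCODE M21 hairpins, whereas each of the other 3 sequences was found in 1 hairpin and was unique there from its first 12 bases on.

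The 3′ arms of the Mir196a genes and both arms of Mir615 are shown because they separate genes that the 5′ arms do not, or carry seeds of their own.
miR-196a-1-3p: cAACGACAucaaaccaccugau
miR-196a-2-3p: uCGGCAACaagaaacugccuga
miR-615-5p: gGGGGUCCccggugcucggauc
miR-615-3p: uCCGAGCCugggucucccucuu
Counted from the first base without alignment, the 3′ arms of Mir196a-1 and Mir196a-2 carry the same base at 5 of 22 positions. Their longest shared run, CCUGA, lies at bases 17 to 21 of the first and 18 to 22 of the second. The unaligned count thus understates their likeness. Each of the 2 arms was found in a single hairpin. The deposited tables count reads per gene and do not separate the arms. Reads that map to more than 1 place enter no gene count, so a whole miR-196a-5p read, which fits both Mir196a genes, would be counted for neither, and the number of such reads is not known. Mir10a, Mir10b, Mir196b and Mir615 share no stretch of 20 bases with any other hairpin, whereas Mir196a-1 and Mir196a-2 share one with each other. Only hairpins were searched, not the whole genome.

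The positions of the genes repeat from cluster to cluster. Mir10a lies in Hoxb on mm10 chromosome 11 (96317165 to 96317274, plus strand), in no other annotated gene and 1495 bases upstream of the coding start of Hoxb4. Mir10b lies in Hoxd on chromosome 2 (74726070 to 74726137, plus strand), in introns of the Hoxd3 and Hoxd4 gene models and 1141 bases upstream of the Hoxd4 coding start. Both miR-10 genes thus precede a Hox gene of the fourth paralog group. The miR-196 genes precede genes of the ninth group instead.

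Mir196a-1 lies in Hoxb on chromosome 11 (96265164 to 96265265, plus strand), outside other annotated genes and 6276 bases upstream of the Hoxb9 coding start. Mir196a-2 lies in Hoxc on chromosome 15 (102973350 to 102973434, plus strand), in an intron of the long Hoxc5 gene model and 8218 bases upstream of the Hoxc9 coding start. The Hoxc10 gene model on its other side is nearer, 1456 bases away against 3004 for that of Hoxc9. Mir196b lies in Hoxa on chromosome 6 (52230081 to 52230165, minus strand), 3976 bases upstream of the Hoxa9 coding start. It overlaps 2 annotated exons of Hoxa9 transcripts, none of them coding sequence or UTR in the annotation. Mir615, also in Hoxc on chromosome 15 (103014910 to 103015001, plus strand), lies in an intron of Hoxc5, with its first base downstream of the start of the Hoxc5 coding sequence. Apart from the members, the annotation places 1 microRNA gene, Gm44463 in Hoxd, between the outermost Hox genes of these clusters, and it had 0 reads in both libraries.

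**Figure D1:**
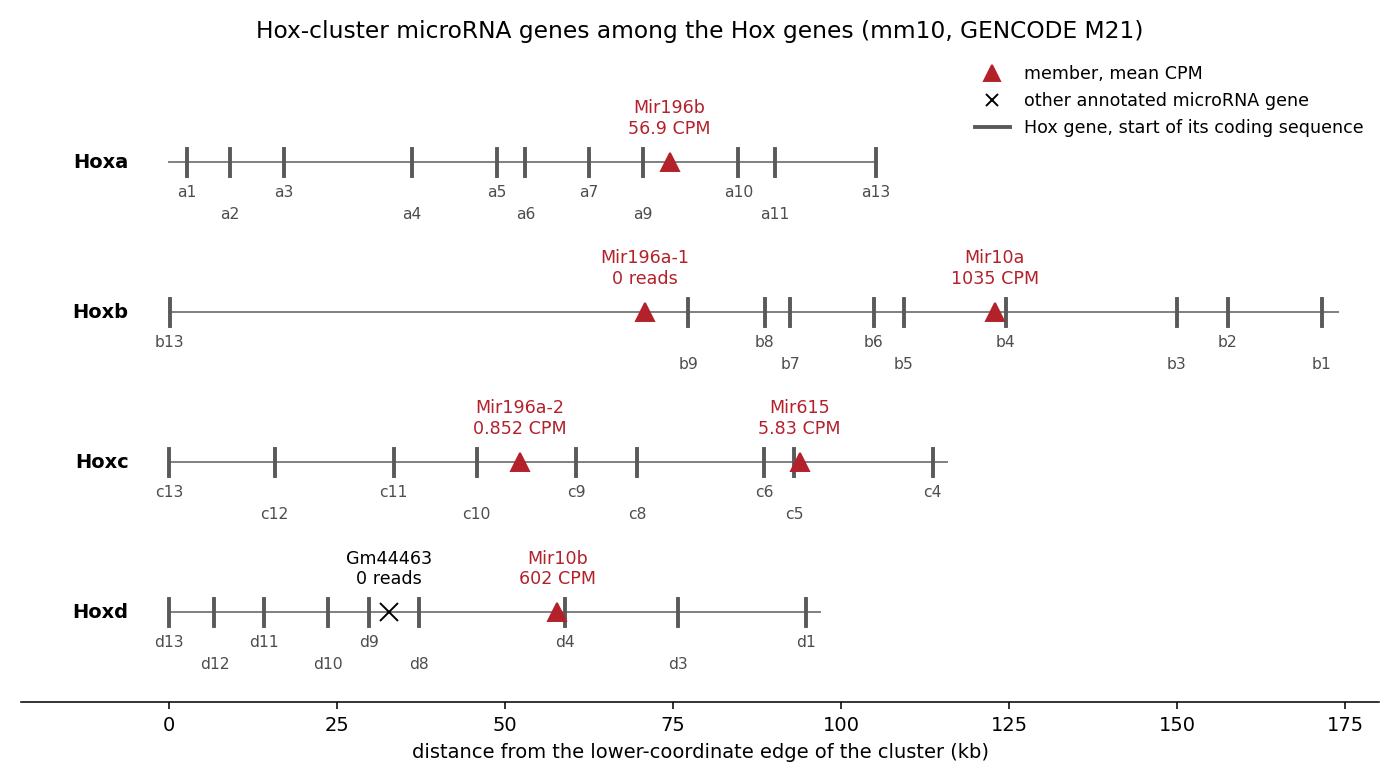
Map of the 4 mouse Hox clusters to scale, with distance from the lower-coordinate edge in kb on the x axis. Grey ticks mark the coding starts of Hox genes, red triangles the members with their mean level in CPM, and the cross another annotated microRNA gene. Mir10a (1035 CPM) and Mir10b (602 CPM) stand next to Hoxb4 and Hoxd4, and the 3 miR-196 genes stand upstream of Hoxa9, Hoxb9 and Hoxc9. Mir196a-2 stands between Hoxc10 and Hoxc9, nearer to Hoxc10.

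Replicate 1 held 12701590 reads and replicate 2 held 7126319, of which 5237062 and 3026501 fell on a microRNA gene in its own direction. Levels are given as reads per 1000000 of these counted reads (CPM), and intervals are exact 95% Clopper-Pearson intervals that cover counting error only, since without molecular identifiers several reads may stem from 1 molecule. Of all reads, 41.1% and 39.9% mapped to several places. The heart label was checked against Mir208a, Mir208b and Mir499, microRNAs of cardiac myosin genes, and all 3 were detected, with 5166 and 3415 CPM in sum. Each SD comes from 2 values and describes the spread between these 2 samples alone. The p-values of the binomial and Fisher's exact tests below set the difference between these samples against counting error, and do not measure that spread.

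Nearly all counted reads of the Hox-cluster microRNAs came from the miR-10 genes. Whole miR-196a-5p reads, which fit both Mir196a genes, are not among the counted reads, and their number is not known. Mir10a and Mir10b together gave 7392 of the 7727 member reads in replicate 1 (95.7%) and 5635 of 5826 in replicate 2 (96.7%). The 6 genes took 0.148% of counted reads in replicate 1 (interval 0.144 to 0.151) and 0.193% in replicate 2 (0.188 to 0.198), with a mean of 0.170% ± 0.0318 (SD, n = 2). Without the miR-10 pair, the other 4 genes took 0.00640% (0.00573 to 0.00712) and 0.00631% (0.00545 to 0.00727), and these intervals overlap. Of the 6 members, Mir10a, Mir10b and Mir196b were detected, with 10 reads or more in each library, where 15.2% of all 2202 genes were.

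Mir10a, the copy of miR-10 in Hoxb, had 4799 reads in replicate 1 and 3489 in replicate 2. That is 916 CPM (891 to 943) and 1153 CPM (1115 to 1192), with a mean of 1035 ± 167 CPM (SD, n = 2), and the 2 intervals do not overlap. It ranked 69th of the 2202 genes by mean level. By the distance of log2(CPM + 1) over the 2 libraries, its 3 nearest of 335 detected genes were Mir20a (828 and 1249 CPM), Mir484 (951 and 1010 CPM) and Mir542 (1006 and 1020 CPM).

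Mir10b, the copy in Hoxd, had 2593 reads in replicate 1 and 2146 in replicate 2. Its level was 495 CPM (476 to 515) and 709 CPM (679 to 740), with a mean of 602 ± 151 CPM (SD, n = 2) and rank 89. It was thus below Mir10a in both libraries, and like Mir10a it was the lower in replicate 1. Its nearest genes in level were Mir30c-2 (604 and 668 CPM), Mirlet7a-1 (622 and 708 CPM) and Mir425 (632 and 656 CPM). Reads mapping to several places are left out, so Mir30c-2 and Mirlet7a-1, whose names mark them as gene copies, can be undercounted.

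Mir196b, the only miR-196 gene with more than a few counted reads, had 284 reads in replicate 1 and 180 in replicate 2. Its level was 54.2 CPM (48.1 to 60.9) and 59.5 CPM (51.1 to 68.8), with a mean of 56.9 ± 3.71 CPM (SD, n = 2) and rank 180. Here the 2 libraries overlap within counting error. Its nearest genes in level were Mir29c (55.8 and 63.4 CPM), Mir341 (59.8 and 63.4 CPM) and Mir122 (55.9 and 70.4 CPM).

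The duplicated Mir196a genes were at or near 0. Mir196a-2 had 2 and 4 reads, or 0.382 CPM (0.0462 to 1.38) and 1.32 CPM (0.360 to 3.38). Mir196a-1 had 0 reads in both libraries, with exact intervals of 0 to 0.704 CPM in replicate 1 and 0 to 1.22 CPM in replicate 2. The floor of 3 reads at which it is drawn is 0.573 CPM in replicate 1 and 0.991 in replicate 2. The neighbour of Mir10a in Hoxb therefore lacked uniquely mapped reads, and its level cannot be read as that of miR-196a, whose 5′ arm is shared by both genes and counted for neither.

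Mir615, which pairs with no other member by seed, had 49 reads in replicate 1 and 7 in replicate 2. Its level was 9.36 CPM (6.92 to 12.4) and 2.31 CPM (0.930 to 4.77), with a mean of 5.83 ± 4.98 CPM (SD, n = 2) and rank 302. The 2 intervals do not overlap, and the mean depends on which library is used. Mir615 and Mir196a-2 lie in the same cluster, and both were far below the miR-10 genes.

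**Figure D2:**
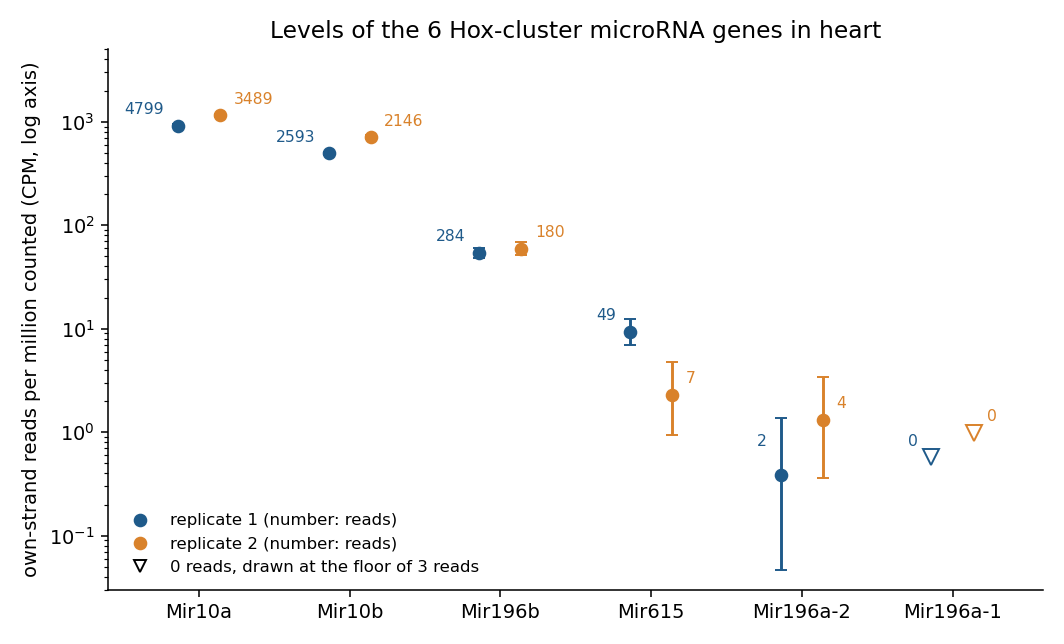
Level of each Hox-cluster microRNA gene in the 2 heart libraries as CPM on a log axis, with exact 95% counting intervals as bars and the number of reads beside each point. Mir10a and Mir10b lie at 495 to 1153 CPM, Mir196b at 54.2 and 59.5 CPM, Mir615 at 9.36 and 2.31 CPM, and the Mir196a genes near or at 0; open triangles mark the floor of 3 reads for Mir196a-1.

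**Figure D3:**
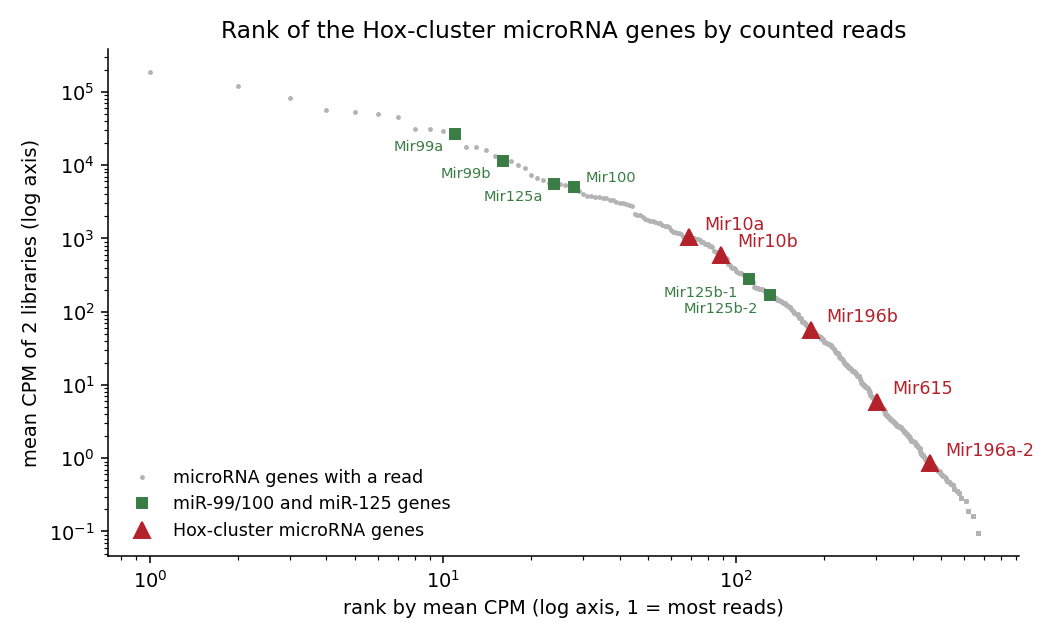
Mean CPM of 2 libraries against rank by mean CPM, both on log axes, for all microRNA genes with a read (grey), the Hox-cluster genes (red) and the miR-99, miR-100 and miR-125 genes (green). The members spread from rank 69 (Mir10a) to rank 458 (Mir196a-2); Mir196a-1 had 0 reads and is not drawn.

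The order of the members was the same in both libraries, from Mir10a through Mir10b, Mir196b and Mir615 to Mir196a-2 and Mir196a-1, although the intervals of Mir196a-2 and Mir196a-1 overlap in both libraries and those of Mir615 and Mir196a-2 in replicate 2. Mir10a was 1.85-fold above Mir10b in replicate 1 (counting interval 1.76 to 1.94) and 1.63-fold above it in replicate 2 (1.54 to 1.72). Both mature 5′ forms are 23 bases long, so this ratio is the same per mature base. Per base of the annotated hairpin, 110 bases for Mir10a and 68 for Mir10b, the mean ratio of Mir10b to Mir10a was 0.935 in place of 0.578. Mir10a exceeded Mir196b by 16.9-fold (15.0 to 19.1) and 19.4-fold (16.7 to 22.6), and Mir10b exceeded it by 9.13-fold (8.07 to 10.4) and 11.9-fold (10.2 to 14.0).

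Between the libraries, Mir10a and Mir10b were lower in replicate 1, Mir615 was higher, and Mir196b was not called. An exact two-sided binomial test on TMM-scaled library sizes with Benjamini-Hochberg adjustment over 430 genes called 3 of the 4 members tested, where 55.3% of all tested genes were called. The test compares these 2 libraries beyond counting error and says nothing of a condition. Differences are given as log2 of replicate 1 minus replicate 2. Mir10b was lower in replicate 1 by 1.57-fold (log2 -0.65, counting interval -0.74 to -0.57, adjusted p = 4.69e-52 by the exact test). Mir10a was lower by 1.38-fold (log2 -0.47, -0.53 to -0.40, adjusted p = 8.34e-46 by the exact test). Both miR-10 genes were thus lower in replicate 1, a call shared by 27.4% of tested genes with TMM and by 22.3% with total counts.

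Mir196b differed by log2 -0.27 (-0.54 to 0.01) and was not called (adjusted p = 0.0980 by the exact test). Mir615 was higher in replicate 1 by 3.48-fold (log2 1.80, 0.73 to 3.27, adjusted p = 0.000887 by the exact test), where 27.9% of tested genes were called higher with TMM and 33.5% with total counts. Its 7 reads in replicate 2 are below the 10 asked of a detected gene, and with that minimum in each library it was not tested. The median log2 difference of the 4 members was -0.37, beside -0.05 over all 430 genes, and the SD over all was 1.08. At least as different as Mir10a in either direction were 53.5% of tested genes, as Mir10b 42.1%, as Mir196b 73.3% and as Mir615 9.77%.

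**Figure D4:**
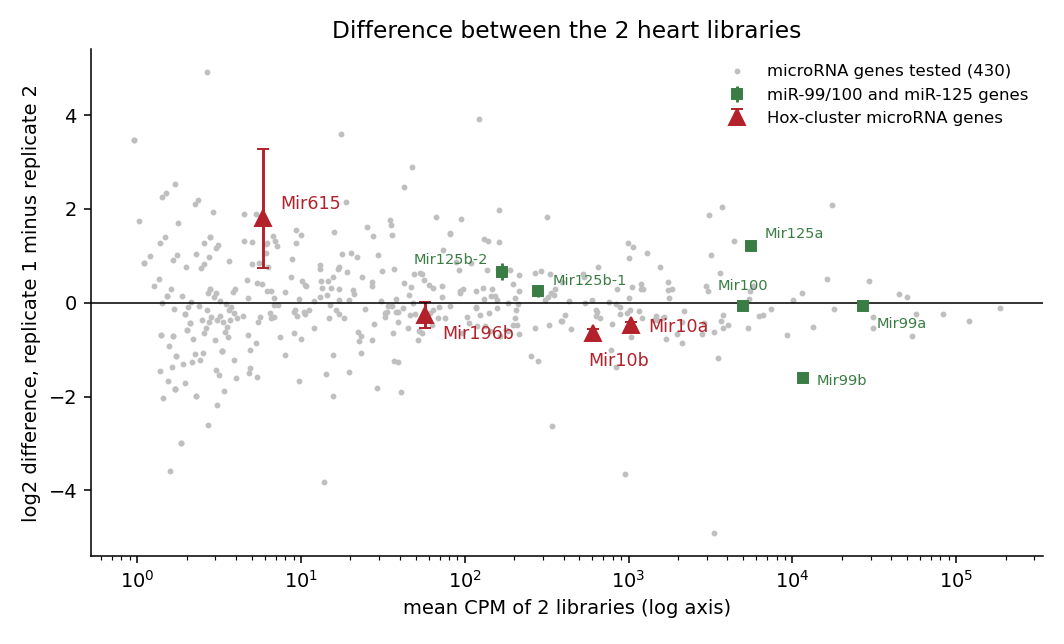
Log2 difference between replicate 1 and replicate 2 after TMM scaling against mean CPM (log axis) for the 430 microRNA genes tested, with counting intervals for the Hox-cluster genes (red) and the miR-99, miR-100 and miR-125 genes (green). Mir10a (-0.47), Mir10b (-0.65) and Mir196b (-0.27) lie below 0 among many grey points, and Mir615 (1.80) lies above 0 with a wide interval.

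These calls rest on counting error alone. The biological coefficient of variation estimated by edgeR from the 2 libraries, taken as 1 group, was 0.424. This estimate already holds the differences between the libraries, so a test at that value could call only genes far more different than most. With edgeR's exact test at that value, 0 of the 4 members were called (adjusted p = 1 for each), where 0.93% of tested genes were called. By the same test 0 of the 4 had an unadjusted p under 0.05, and only 24 of the 430 tested genes had one. At a fixed coefficient of 0.1, edgeR's exact test called Mir10b (adjusted p = 0.0103) and Mir615 (0.00587) and not Mir10a (0.0757), where 28.6% of tested genes were called. Scaling by total counts moved all log2 differences up by 0.13 and left the direction of all 4 members as it was.

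Markers of heart cell types also differed between the libraries, and their calls by the same test with TMM are given beside the sums. The endothelial microRNA Mir126a, the only gene of its list, was called lower in replicate 1, at 42911 and 63991 CPM (log2 -0.71). The smooth muscle pair summed to 30333 and 33879 CPM, with Mir143 called lower in replicate 1 and Mir145a higher. The erythroid genes summed to 995 and 7382 CPM, with Mir451a and Mir144 lower and Mir486 higher (658 and 410 CPM). The 5 leukocyte genes, all detected, summed to 3855 and 4154 CPM, although 4 were called higher in replicate 1 and only Mir155 (1591 and 2619 CPM) lower. The fibroblast genes, 8 of 9 detected and 1 at 0 in each library, summed to 8080 and 3474 CPM. Of these, 3 were called higher and 3 lower in replicate 1, and Mir21a alone went from 4926 to 1225 CPM between replicate 1 and replicate 2. The epithelial genes, 7 of 10 detected and 1 at 0 in replicate 2, summed to 734 and 446 CPM, with 7 called higher and 1 lower. The cardiomyocyte genes, 5 of 8 detected, summed to 5194 and 3456 CPM, with 2 called higher and 1 lower. Of that sum, Mir208a, Mir208b and Mir499 gave 5166 and 3415 CPM, and the Mir1a and Mir133 genes the rest. Since reads mapping to several places enter no gene count, these low counts need not be the levels of miR-1 and miR-133. Whether reads of these genes were lost this way was not tested. Mir206 of skeletal muscle had 7.83 and 20.5 CPM and Mir122 of liver 55.9 and 70.4 CPM, and both were called lower in replicate 1. The part of these cell types in the members' differences was not tested, and in such bulk libraries fewer cells of a type and less RNA per cell cannot be told apart.

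Ratios between members need no scaling of the libraries, and 6 pairs among the 4 members with at least 10 reads in sum were compared by two-sided Fisher's exact tests. The ratio of Mir10b to Mir10a was 0.540 in replicate 1 and 0.615 in replicate 2, a 1.14-fold difference (log2 -0.19, -0.29 to -0.08, adjusted p = 0.000626 by Fisher's exact test over 6 pairs). The ratio's difference follows by arithmetic from the level differences of Mir10a and Mir10b, 1.38-fold and 1.57-fold with TMM. Those went the same way, so a smaller difference of the ratio is no separate result. Mir196b to Mir10a was 0.0592 and 0.0516, a difference of log2 0.20 whose interval (-0.08 to 0.48) spans 0 (adjusted p = 0.176 by Fisher's exact test). Mir196b to Mir10b differed by 1.31-fold (log2 0.38, 0.10 to 0.68, adjusted p = 0.00983 by Fisher's exact test).

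The ratios of Mir615 rest on 49 and 7 reads. Relative to Mir10a it was 5.09-fold higher in replicate 1 (log2 2.35, 1.19 to 3.74, adjusted p = 6.47e-06 by Fisher's exact test). Relative to Mir10b it was 5.79-fold higher, and relative to Mir196b 4.44-fold higher (adjusted p = 1.41e-06 and 0.000105 by Fisher's exact test). The size of this difference is known only within wide counting intervals, 0.95 to 3.57 on the log2 scale relative to Mir196b.

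The closest relatives of miR-10 outside the Hox clusters are the miR-99 and miR-100 genes, which lie with let-7 and miR-125 genes, and their 5′ arms are shown for comparison.
miR-100-5p: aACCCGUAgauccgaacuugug
miR-99a-5p: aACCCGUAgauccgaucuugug
miR-99b-5p: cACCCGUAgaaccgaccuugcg
Their seed differs from that of miR-10. The longest run that miR-10a-5p shares with miR-100-5p is GUAGAUCCGAA, bases 7 to 17 of miR-10a and 6 to 16 of miR-100. The run of miR-10a-5p is 10 bases long with miR-99a-5p and 5 with miR-99b-5p, and between miR-10b-5p and miR-100-5p it is also 5. The pair of miR-10b-5p and miR-99b-5p was not among those compared, but both hold GUAGAACCGA. The short runs therefore do not make miR-99b or miR-10b the more distant sequence. For miR-196 the run of note is with let-7a-5p, in which bases 3 to 9 equal the miR-196 seed at bases 2 to 8, and the seeds themselves differ.
let-7a-5p: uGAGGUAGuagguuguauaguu

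The miR-99 and miR-100 genes were far more abundant than the miR-10 genes. Mir99a, Mir99b and Mir100 summed to 38780 and 48317 CPM, against 1411 and 1862 CPM for Mir10a and Mir10b, a ratio of 27.5 (26.8 to 28.1) in replicate 1 and 26.0 (25.3 to 26.7) in replicate 2. Mir100, the least abundant of these 3, had 5099 and 4860 CPM and exceeded Mir10a by 5.56-fold (5.40 to 5.74) and 4.22-fold (4.06 to 4.38). The 3 miR-125 genes exceeded the miR-10 pair in sum by 6.06-fold (5.91 to 6.21) and only 1.90-fold (1.84 to 1.96). Mir125b-1 (315 and 241 CPM) and Mir125b-2 (213 and 123 CPM) were below both miR-10 genes, but they share 20 bases with each other and can be undercounted.

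Between the libraries, 3 of these 6 relatives were called lower in replicate 1 and 3 higher by the binomial test, where 27.4% of tested genes were lower and 27.9% higher. With total counts 1 was lower and 5 were higher, where 22.3% and 33.5% of tested genes were. With edgeR's exact test at a coefficient of 0.1, Mir99b, Mir125a and Mir125b-2 were called, where 28.6% of tested genes were. At the estimated coefficient none of the 6 was called (adjusted p = 1 for each), where 0.93% of tested genes were. There 0 of the 6 had an unadjusted p under 0.05 by edgeR's exact test, as had 24 of the 430 tested genes. Mir99a (log2 -0.08) and Mir100 (-0.07) were called lower but turned to higher with total counts (0.05 and 0.07). Mir99b was lower in replicate 1 by 3.02-fold (-1.60) and Mir125a was higher by 2.30-fold (1.20). The median over the 6 was 0.09, beside -0.37 for the 4 members and -0.05 for all tested genes. Each of the differences of Mir10a and Mir10b thus lay between those of Mir99b and Mir99a.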

How the data were processed

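The deposited tables hold whole-number read counts per microRNA gene for each library, not normalized by the authors. Per the deposited readme, counts were made on mm10 with GENCODE M21. For trimming, alignment and counting, the tools were not given in the sources used here. Own-strand counts were used. The 6 members had the same counts without regard to strand and 0 reads on the opposite strand. The first 4 lines are totals without a gene and were left out of library sizes: unmapped reads (13.4% and 13.3%), reads mapping to several places (41.1% and 39.9%), reads outside genes (4.33% and 4.30%) and 0 ambiguous reads.

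Counts were scaled to 1000000 own-strand gene reads. Genes with at least 10 reads in sum (430 of 2202) were tested between libraries by an exact binomial test, with edgeR 4.0.16 TMM factors computed on these genes under R 4.3.3, Benjamini-Hochberg adjustment and a threshold of 0.05. For log2 differences 0.5 reads were added to each count. The test was checked on simulated counts that held counting error alone, so the check does not cover variation between samples. edgeR's exact test, DESeq2 1.42.0 size factors and the other settings given in the closing section were alternatives. Tables, exact tests and figures were made in Python 3.11.15 with scipy 1.17.1, numpy 2.4.6, pandas 2.3.3 and matplotlib 3.10.9. Sequences come from RefSeq on GRCm38.p6, where all 6 members had 2 mature entries.

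Named were the 6 members, the miR-99, miR-100 and miR-125 genes, other microRNA genes inside the Hox clusters, detected genes with a member's seed and the 3 nearest genes in level of each detected member. The members and lists were chosen with earlier results of these data known.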

Additional observations from a re-analysis of the deposited data

How the results depend on the processing

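Calls between the libraries depended on the test. The 238 genes called by the binomial test became 123 with edgeR's exact test at a coefficient of variation of 0.1 and 4 at the estimated one, where 24 had an unadjusted p under 0.05. The other settings gave 216 to 240 calls, TMM over all annotated genes, added after seeing the data, among them. Of the calls, 120 were higher and 118 lower in replicate 1 with TMM, and 144 and 96 with total counts. The members' directions held under every setting run for them, and the binomial calls of Mir10a, Mir10b and Mir615 held under each scaling and with unstranded counts. The log2 difference of Mir615 ranged from 1.24 with a pseudocount of 5 reads to 1.93 with total counts. It was not tested where at least 10 reads in each library were asked for. The members' summed share was 0.233% of unstranded gene reads, since fewer reads are assigned there, and 0.0713% of all reads. Leaving out a replicate gave 0.148% and 0.193%, and a Mir10b to Mir10a ratio of 0.540 and 0.615. Per base of hairpin the mean ratio was 0.935. No test between libraries remains without a replicate. No paired analysis was possible because there is a single group. Depth limits Mir615, with 7 reads in replicate 2, whereas reads shared by both Mir196a genes are left out at any depth.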
